A study of Mus musculus with 5 samples.

Results

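The genes of cholesterol synthesis and sterol regulation were compared between wild-type and Mkl2-/- mouse embryonic stem cells. The set was fixed by name as 29 genes: the enzymes in pathway order, the regulators of the sterol-responsive transcription factors, and genes of sterol transport and storage. Of these, 27 had a feature whose annotation gives exactly 1 symbol, out of 19938 genes measured that way, and the brightest feature of each gene over all arrays was used. Acat2 and Soat1 had no such feature and were not analysed here. The cells were undifferentiated embryonic stem cells of strain C57BL/6, with 2 arrays of wild-type cells and 3 arrays of cells lacking Mkl2 on both alleles. Mkl2, now named Mrtfb, encodes a myocardin-related transcription factor that works with serum response factor. Both genotypes grew on gelatin over feeder fibroblasts in serum-containing medium with leukaemia inhibitory factor, no other allele or agent is given, and each array came from an independent culture. The sources used here do not say whether a genotype is represented by 1 clone or several. The p-values set each difference against the spread between these cultures and may not cover variation between clones. Values are log2 expression, a difference is Mkl2-/- minus wild type, and its error is the standard error (SE) of the limma fit.

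Cholesterol is built from acetyl units in a single long pathway. The early steps make mevalonate, turn it into isoprenoid units and join these into squalene. The late steps close squalene into lanosterol and then remove methyl groups and move double bonds until cholesterol is reached. Most of these enzyme genes are activated by the sterol regulatory element binding proteins (SREBPs), of which Srebf2 encodes the form best known for sterol genes and Srebf1 the forms best known for fatty acid genes. The SREBPs are made as membrane proteins of the endoplasmic reticulum. When sterols are scarce, the escort protein encoded by Scap carries them to the Golgi, where they are cut and released to the nucleus. When sterols are plentiful, the proteins encoded by Insig1 and Insig2 hold the escort back.

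The 3 features of Mkl2 itself differed by -0.53 to -0.98, and the sources used here do not say whether any of them probes the deleted stretch. All 12 stem cell markers lay above the background level of 7.30, below which 95% of 1027 olfactory receptor genes lay. All 27 sterol genes also lay above that level. By limma at an adjusted p under 0.05, 4 of the 12 markers rose and 2 fell (median difference 0.05). Over all genes 2.99% rose and 6.28% fell. The falls were in Nanog (-1.14, adjusted p = 0.0082), larger than that of any sterol gene, and Tfcp2l1 (-0.665, adjusted p = 0.033). The rises were in Dppa4 (0.74), Fgf4 (0.67), Dppa5a (0.49) and Utf1 (0.39). Pou5f1 (0.03) and Sox2 (0.07) did not pass. Another 17 genes were read as fibroblast markers because feeder cells may be carried over, but which cells gave their signal was not tested. Of these 17, 14 had a negative difference and 2, Mmp2 and Pdgfrb, passed the test as lower (median -0.06). A negative difference was seen in 7215 of all 19938 genes and in 5897 of the 13564 above background. The mean of the 17 fibroblast markers was 7.91 on both wild-type arrays and 7.78 to 7.83 on the Mkl2-/- arrays. Of the 17, 14 lay above background, with Mmp2 (mean 9.85) and Col1a1 (mean 9.16) the brightest, and Lum, Postn and Fap lay below it on all 5 arrays. Equal values were common in the deposited data: 766 genes carry the same value on all 5 arrays, and 38.6% of all genes carry the same value on at least 3. No sterol gene had 5 equal values, although 4 of the 27 had at least 3. The sources used here do not say whether a further step after normalization made these values equal, and very small standard errors, such as those of Fdft1 and Sc5d, are subject to that doubt.

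Part of the sterol pathway was lower in Mkl2-/- cells, including 6 late enzymes, 2 early enzymes, the regulator Insig1 and the transport genes Stard4 and Npc1. Of the 27 genes, these 11 fell (adjusted p under 0.05, limma with Benjamini-Hochberg adjustment over all 19938 genes), 0 rose, and 16 did not pass the test. Over all genes tested 9.27% were called, 6.28% as lower and 2.99% as higher, against 11 of 27 lower and 0 of 27 higher here. Among the 13564 genes above background, where all 27 sterol genes lay, 8.78% were called lower and 4.15% higher. At an unadjusted limma p under 0.05, 18 sterol genes were lower and 1, Abcg1, was higher. Of all 19938 genes, 2556 were lower and 2025 higher at that level, and of the 13564 above background 2395 and 1785. The falls were small, between 1.18-fold (Fdft1) and 1.59-fold (Hsd17b7), and 2 of the 11 reached 1.5-fold. The median difference of the 27 genes was -0.24, beside 0.02 for all genes. In 20 of the 27 every Mkl2-/- array lay below both wild-type arrays, a pattern seen in 16.7% of all genes and 22.7% of those above background. The averages over the 27 genes were 10.34 and 10.31 on the wild-type arrays and 10.08, 10.12 and 10.06 on the Mkl2-/- arrays, so the 3 Mkl2-/- arrays lay below both wild-type arrays. In bulk RNA, fewer cells with a transcript and less of it per cell cannot be told apart.

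These calls depended on having all 5 arrays. The number of sterol genes called lower was 3 without wild-type replicate 1 (Fdft1 and Sc5d of the 11, and Idi1), 0 without wild-type replicate 2 (where no gene of the whole table passed), and 2, 4 and 2 without Mkl2-/- replicates 1, 2 and 3. All 11 genes kept a negative difference in each of these fits. With the mean of the fibroblast markers as a covariate no sterol gene passed, again as no gene of the table did. The median difference of the 27 genes in that fit was -0.31. That mean was 7.91 on both wild-type arrays and 7.78 to 7.83 on the Mkl2-/- arrays, so it nearly follows the genotype. With 5 arrays the fit can hardly separate the covariate from the genotype, and nothing is concluded from its calls or its median. A further quantile normalization moved the split of all calls from 596 higher and 1252 lower to 1254 and 1652, and that of the sterol genes from 0 and 11 to 1 and 15.

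**Figure D1:**
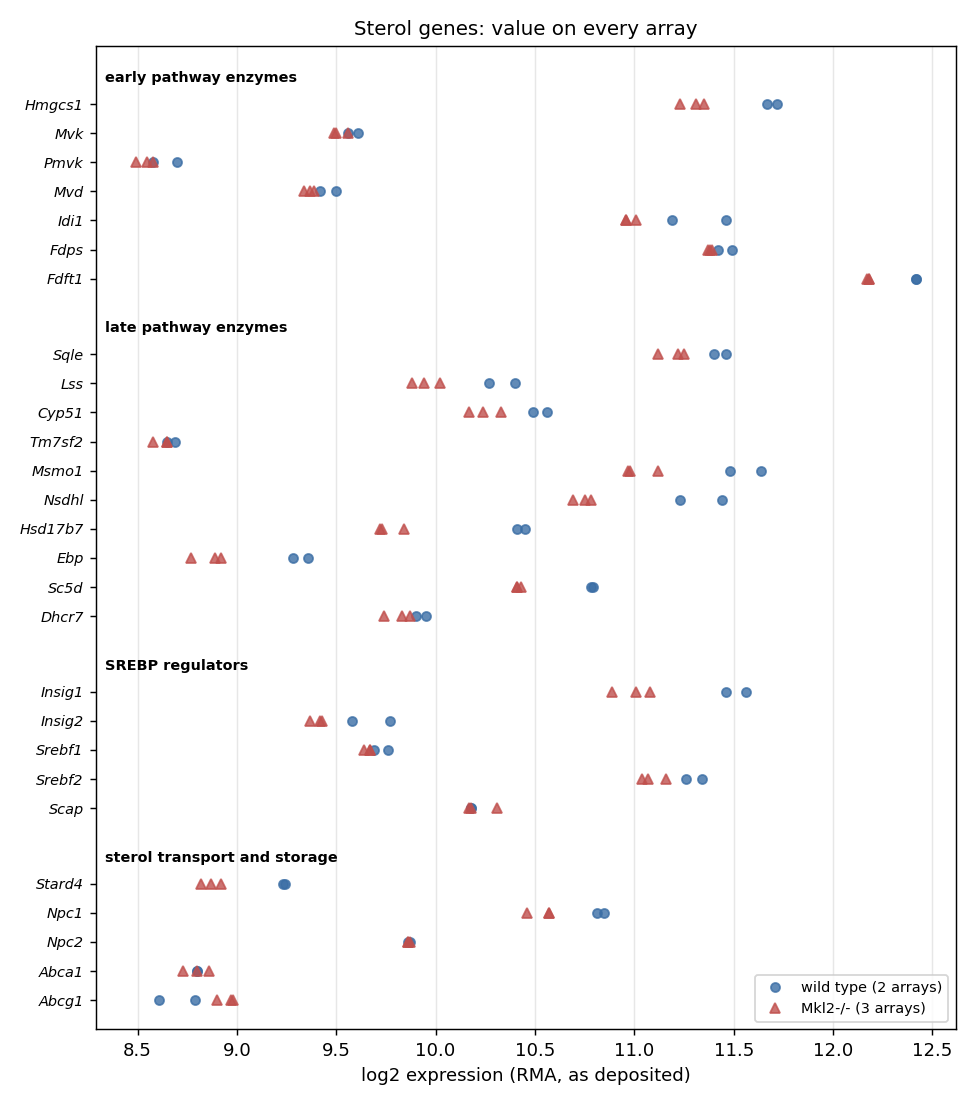
Log2 expression (x axis) of the 27 sterol genes (rows, by role and in pathway order) on each array, with circles for the 2 wild-type and triangles for the 3 Mkl2-/- cultures. In 20 rows all triangles lie to the left of both circles, with the widest gaps among the late enzymes, and Abcg1 alone shows the reverse.

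Promoter sequence was looked up for the 5 genes below because they are the 4 largest falls (Hsd17b7, Nsdhl, Msmo1 and Insig1) and the gene with a sterol regulatory element in its window (Hmgcs1). Each line gives the 250 bases before the gene's start from RefSeq, build GRCm38.p6, in the gene's direction. Capitals mark CCAAT, which reads ATTGG where it lies on the other strand, the letters bound by nuclear factor Y, a usual partner of the SREBPs, and TCACCCCAC, the core of the textbook sterol regulatory element.
Hsd17b7 (chr1:169969206-169969455, minus strand): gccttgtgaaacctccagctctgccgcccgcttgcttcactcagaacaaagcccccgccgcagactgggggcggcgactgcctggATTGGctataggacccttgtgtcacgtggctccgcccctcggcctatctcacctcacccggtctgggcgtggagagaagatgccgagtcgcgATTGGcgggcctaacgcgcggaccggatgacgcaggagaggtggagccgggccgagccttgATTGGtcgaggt
Nsdhl (chrX:72918271-72918520, plus strand): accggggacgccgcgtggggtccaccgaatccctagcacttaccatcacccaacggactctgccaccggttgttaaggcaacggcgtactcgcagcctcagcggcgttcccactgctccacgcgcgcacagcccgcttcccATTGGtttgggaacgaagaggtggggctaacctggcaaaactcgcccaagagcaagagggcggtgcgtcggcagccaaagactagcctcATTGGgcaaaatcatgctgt
Msmo1 (chr8:64733579-64733828, minus strand): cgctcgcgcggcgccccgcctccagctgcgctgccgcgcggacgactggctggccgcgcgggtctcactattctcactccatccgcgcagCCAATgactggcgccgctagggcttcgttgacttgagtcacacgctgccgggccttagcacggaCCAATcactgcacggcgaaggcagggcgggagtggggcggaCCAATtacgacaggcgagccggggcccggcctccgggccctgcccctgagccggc
Insig1 (chr5:28071162-28071411, plus strand): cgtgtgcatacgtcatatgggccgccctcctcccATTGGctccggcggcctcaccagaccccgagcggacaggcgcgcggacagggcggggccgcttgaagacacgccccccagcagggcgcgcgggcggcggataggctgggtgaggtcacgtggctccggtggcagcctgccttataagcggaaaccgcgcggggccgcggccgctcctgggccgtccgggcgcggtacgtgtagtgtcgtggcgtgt
Hmgcs1 (chr13:119690101-119690350, plus strand): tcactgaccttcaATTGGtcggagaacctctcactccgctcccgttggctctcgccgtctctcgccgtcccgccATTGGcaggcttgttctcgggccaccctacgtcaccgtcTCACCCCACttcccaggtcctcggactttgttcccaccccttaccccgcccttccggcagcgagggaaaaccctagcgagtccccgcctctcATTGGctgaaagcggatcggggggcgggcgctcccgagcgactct

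The RefSeq table held windows of 300 bases (250 before and 50 after the start) for 21 of the 27 measured genes, 8 of them among the 11 that fell. These 8 had 8 windows and the 13 others had 21. A gene was counted if any of its windows held the letters. CCAAT was found on either strand in all 8 of the genes that fell and in 11 of the 13 others. Of the 27025 genes in the table, non-coding genes included, 41.1% held it. By window, CCAAT was in 8 of 8 for the genes that fell, 12 of 21 for the others and 37.4% of all windows. The stretches above hold 3 such matches for Hsd17b7, 2 for Nsdhl, 3 for Msmo1, 1 for Insig1 and 3 for Hmgcs1. TCACCCCAC stood in Hmgcs1 alone, with its first base at -137 from the start, against 0.614% of all genes in the table. Letting its middle base vary (TCACNCCAC, which includes the former) added no sterol gene, and 1.44% of all genes held that form. The E-box letters CANNTG were found in 18 of the 21 genes and in 20265 of the 27025 genes of the table. The CArG box, the element bound by serum response factor, was found in 0 of the 21 and in 1.81% of all genes. These matches are letters in a fixed window and no measure of binding.

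Among the early enzymes, which lead from acetyl units to squalene, 2 of 7 genes fell and the 5 others did not pass. Hmgcs1 encodes the synthase that makes HMG-CoA ahead of mevalonate. It read 11.72 and 11.67 on the wild-type arrays and 11.31, 11.35 and 11.23 on the Mkl2-/- arrays. The groups were far apart against their spread, and Hmgcs1 fell by 0.40 ± 0.04 (SE; 1.32-fold lower, adjusted p = 0.022). Fdft1 encodes squalene synthase, the first step committed to sterols. It read 12.42 on both wild-type arrays and 12.17, 12.18 and 12.18 on the Mkl2-/- arrays. Its fall of 0.24 ± 0.01 (adjusted p = 0.0062) was the smallest of the 11 and rested on almost no spread within the groups. A further feature of Fdft1, which the set did not use, differed by -0.29 ± 0.04.

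The enzymes between these steps moved less or varied more. Idi1, which interconverts the isoprenoid units, stood at 11.19 and 11.46 in the wild-type cultures, and at 11.01, 10.96 and 10.96 in the Mkl2-/- cultures. All Mkl2-/- arrays were the lower ones, but the wild-type arrays were themselves 0.27 apart (an SD of 0.19), and the difference of -0.35 ± 0.09 did not pass (adjusted p = 0.118). It passed after quantile (adjusted p = 0.033) and cyclic loess normalization (adjusted p = 0.034) and without wild-type replicate 1 (-0.48, adjusted p = 0.042), over a range of 0.033 to 0.899 for all alternatives, and a further feature of Idi1 differed by -0.42 ± 0.07. The mevalonate kinase gene Mvk (-0.07), the phosphomevalonate kinase gene Pmvk (-0.10), the decarboxylase gene Mvd (-0.09) and the farnesyl diphosphate synthase gene Fdps (-0.075) had small differences, none past the test. The median of the 7 early genes was -0.10.

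Of the 10 late enzymes, which lead from squalene to cholesterol, 6 fell, and all 10 differences were negative, with a median of -0.38. In 9 of the 10 the arrays of the groups did not overlap, with Mkl2-/- the lower. That pattern was seen in 16.7% of all genes and 22.7% of those above background. A negative difference was seen in 7215 of all 19938 genes and in 5897 of the 13564 above background. Hsd17b7 encodes the keto reductase of the complex that removes methyl groups at carbon 4 of the sterol ring. It read 10.41 and 10.45 on the wild-type arrays against 9.72, 9.84 and 9.73 on the Mkl2-/- arrays, and its fall of 0.67 ± 0.05 (1.59-fold, adjusted p = 0.011) was the largest of the set. Hsd17b7 lies on chromosome 1, whose 758 genes above background had a median difference of -0.165, and its 24 nearest such neighbours had a median of -0.04.

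Both other enzymes of carbon 4 demethylation in the set fell as well. Nsdhl, the sterol dehydrogenase gene of this complex, lies on the X chromosome and stood at 11.44 and 11.23 in the wild-type cultures, and at 10.69, 10.78 and 10.75 in the Mkl2-/- cultures. The groups were apart although the wild-type arrays differed from each other, and Nsdhl fell by 0.595 ± 0.08 (1.51-fold, adjusted p = 0.028). Msmo1, the methyl oxidase gene that acts first, read 11.48 and 11.64 on the wild-type arrays against 11.12, 10.98 and 10.97 on the Mkl2-/- arrays. It fell by 0.54 ± 0.08 (1.45-fold, adjusted p = 0.035). The medians of the 24 neighbours of Nsdhl and Msmo1 were -0.115 and -0.12, the lowest beside any of the 11 genes that fell, and the highest was 0.07 (Insig1). On the X chromosome, which holds Nsdhl and also Ebp (below), the 409 genes above background had a median difference of -0.05.

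The isomerase and desaturase genes that follow were lower too. Ebp, which encodes the isomerase that shifts a ring double bond, is X-linked and stood at 9.36 and 9.28 in the wild-type cultures, and at 8.89, 8.92 and 8.77 in the Mkl2-/- cultures, a fall of 0.46 ± 0.06 (adjusted p = 0.028). Sc5d, the desaturase gene of the next step, read 10.78 and 10.79 on the wild-type arrays against 10.41, 10.43 and 10.41 on the Mkl2-/- arrays. Replicates were nearly equal, and its fall of 0.37 ± 0.01 had the smallest adjusted p of the set (0.0059). Lss encodes the cyclase that forms lanosterol. It stood at 10.40 and 10.27 in the wild-type cultures, and at 9.94, 10.02 and 9.88 in the Mkl2-/- cultures, a fall of 0.39 ± 0.06 close to the threshold (adjusted p = 0.046).

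The 4 late enzymes that did not pass included an enzyme on each side of Lss. Sqle, the epoxidase gene ahead of it, read 11.40 and 11.46 on the wild-type arrays against 11.12, 11.25 and 11.22 on the Mkl2-/- arrays (-0.23 ± 0.05, adjusted p = 0.078). Cyp51, the demethylase gene after it, stood at 10.49 and 10.56 in the wild-type cultures, and at 10.24, 10.33 and 10.17 in the Mkl2-/- cultures (-0.28 ± 0.06, adjusted p = 0.075). In both genes the Mkl2-/- arrays were the lower 3. Both passed after quantile normalization (adjusted p = 0.032 for Sqle and 0.015 for Cyp51), after cyclic loess normalization (0.025 and 0.015), among genes above background (0.0497 and 0.048) and among genes above the median gene (0.039 and 0.037). Lss itself did not pass with all features fitted together (adjusted p = 0.064). Dhcr7, a reductase gene of the last steps, differed by -0.11 (95% interval -0.245 to 0.02). Tm7sf2, a reductase gene whose step other enzymes can also carry out, differed by -0.04 (95% interval -0.13 to 0.04) and its groups overlapped.

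**Figure D2:**
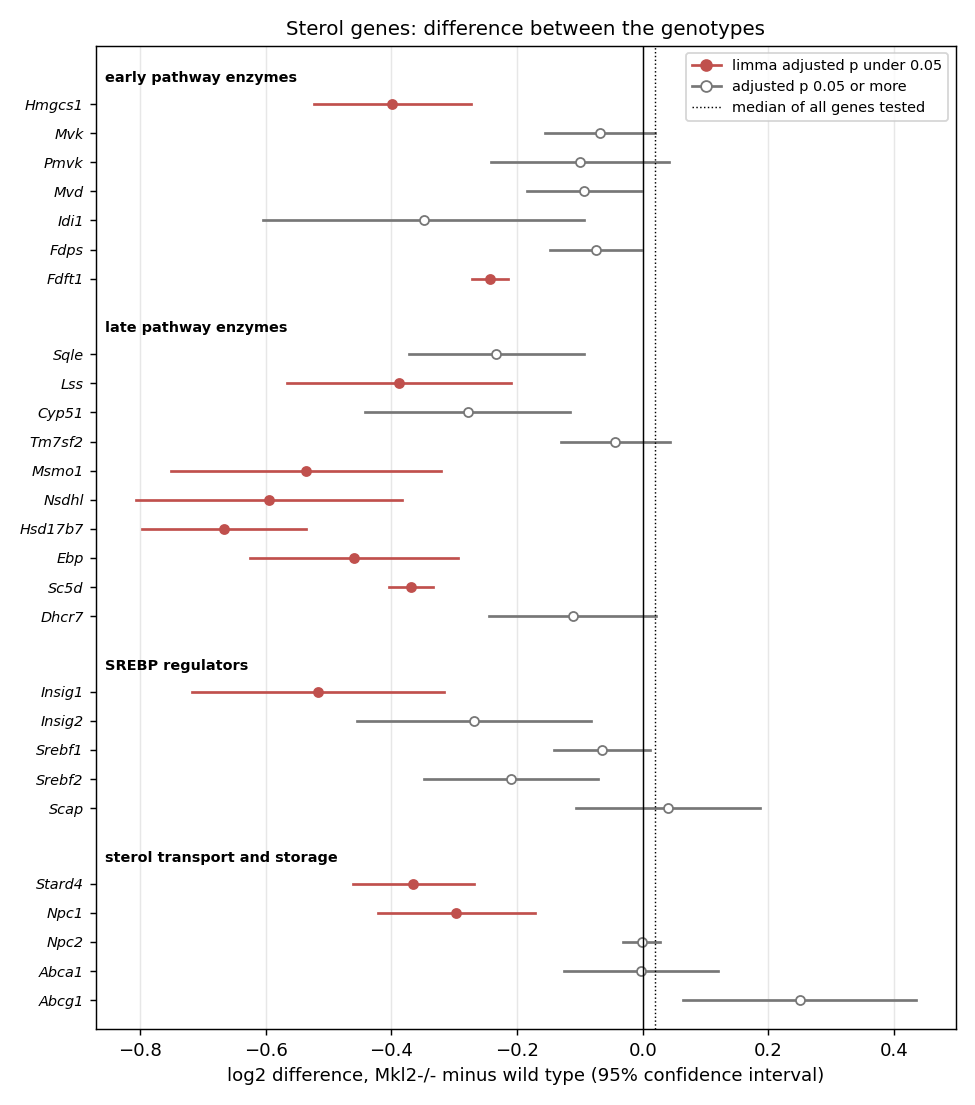
Log2 difference, Mkl2-/- minus wild type (x axis), with its 95% confidence interval for the 27 sterol genes, filled where the limma adjusted p is under 0.05. The filled points are 2 early enzymes, 6 late enzymes, Insig1, Stard4 and Npc1, all left of zero, and the dotted line marks the median of all genes at 0.02.

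Of the 5 SREBP regulators, Insig1 fell and the 4 others did not pass the test. Insig1, itself a well-known SREBP target as well as a brake on SREBP processing, read 11.56 and 11.46 on the wild-type arrays against 11.08, 11.01 and 10.89 on the Mkl2-/- arrays. The groups were clearly apart, with a fall of 0.52 ± 0.07 (1.43-fold, adjusted p = 0.033). Srebf2 stood at 11.34 and 11.26 in the wild-type cultures, and at 11.07, 11.16 and 11.04 in the Mkl2-/- cultures. Its Mkl2-/- arrays were the lower 3, and the difference of -0.21 ± 0.05 had an adjusted p of 0.096. Srebf2 passed after quantile (adjusted p = 0.042) and cyclic loess normalization (0.033) and among genes above the median gene (0.049). It did not pass in the 10 other alternatives that kept all arrays.

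Insig2, the relative of Insig1 that is not driven by SREBPs in the same way, read 9.77 and 9.58 on the wild-type arrays against 9.37, 9.43 and 9.42 on the Mkl2-/- arrays (-0.27 ± 0.07, adjusted p = 0.106). It passed after cyclic loess normalization (adjusted p = 0.047) but not in the 11 other alternatives that tested it on all arrays. Insig2 lies on chromosome 1, and its 24 neighbours above background had a median difference of -0.20, nearly that of Insig2 itself. Srebf1 differed by -0.065 (95% interval -0.14 to 0.01). Scap was the only regulator with a positive difference, at 0.04 (95% interval -0.11 to 0.19), and 4 of its 5 arrays read 10.17 or 10.18.

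Sterol transport genes split into 2 that fell and 3 that did not pass. Stard4, which encodes a soluble carrier that moves cholesterol between membranes and is a known SREBP target, stood at 9.23 and 9.24 in the wild-type cultures, and at 8.87, 8.92 and 8.82 in the Mkl2-/- cultures. It fell by 0.365 ± 0.03 (1.29-fold, adjusted p = 0.016). Npc1, which encodes the membrane protein that exports cholesterol from lysosomes, read 10.81 and 10.85 on the wild-type arrays against 10.57, 10.57 and 10.46 on the Mkl2-/- arrays, a fall of 0.30 ± 0.04 (1.23-fold, adjusted p = 0.039). Like Lss, Npc1 did not pass with all features fitted together (adjusted p = 0.056).

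Npc2 encodes the soluble lysosomal partner of Npc1. It read between 9.86 and 9.87 on all 5 arrays, a difference of 0.00 with a 95% interval of -0.03 to 0.03. The efflux transporter genes Abca1 and Abcg1 are classic targets of the oxysterol receptors (LXRs), which respond to sterol excess. Abca1 read 8.80 on both wild-type arrays and 8.80, 8.86 and 8.73 in Mkl2-/- (difference 0.00, 95% interval -0.13 to 0.12). Abcg1 was the only sterol gene whose Mkl2-/- arrays (8.90, 8.97 and 8.98) all lay above the wild-type arrays (8.79 and 8.61). Of all genes 16.9% did so, and of those above background 20.3%. The Abcg1 difference of 0.25 ± 0.07 did not pass (adjusted p = 0.122) except after quantile normalization (adjusted p = 0.045), over a range of 0.045 to 0.899 for all alternatives.

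**Figure D3:**
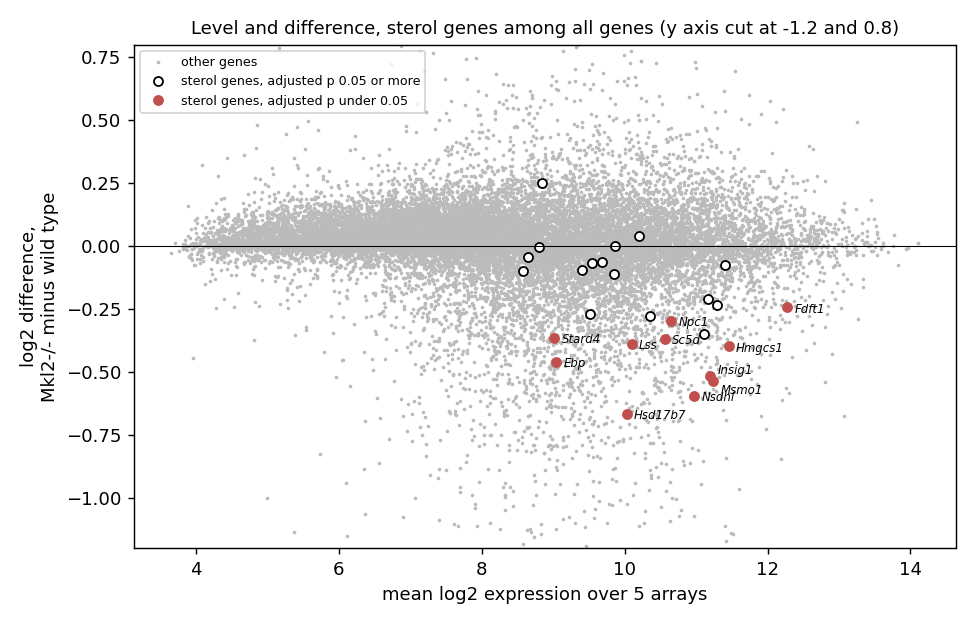
Mean log2 expression over the 5 arrays (x axis) against the log2 difference, Mkl2-/- minus wild type (y axis), for all 19938 genes in grey and the 27 sterol genes as circles, filled where the adjusted p is under 0.05; 112 genes lie outside the drawn range of -1.2 to 0.8. The filled circles lie between -0.24 and -0.67 at mean levels from 9.02 to 12.27.

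Other lipid genes were read from the same fit to set the sterol genes beside the rest of their pathway. The shares to set beside each list are 6.28% lower and 2.99% higher over all genes, and 8.78% and 4.15% above background. At an unadjusted limma p under 0.05, 2556 of 19938 genes were lower and 2025 higher. No list was tested as a set against these shares. Of 17 measured genes of fatty acid synthesis and desaturation, 6 fell and 0 rose (7 and 0 at an unadjusted p under 0.05), with a median of -0.09. The desaturase genes led this list: Fads2 fell by 0.465 ± 0.03 (adjusted p = 0.011), Scd2 by 0.43 ± 0.03 (adjusted p = 0.012) and Scd1 by 0.51 ± 0.06 (adjusted p = 0.023). Elovl5, which encodes a fatty acid elongase, fell by 0.28 ± 0.04 (adjusted p = 0.040). Scd1 and Scd2 are close paralogs, and how well the array's features tell them apart was not tested. The synthase gene Fasn (-0.05) and the citrate lyase gene Acly (-0.025) did not pass. Elovl5 did not pass with array weights (adjusted p = 0.073) or with all features fitted together (adjusted p = 0.057). The 6 calls became 7 under both normalizations and both dim-gene filters. They became 4 with array weights, 3 with all features fitted together, 0 with no moderation and 0 with a 1.5-fold minimum. They became 1, 0, 2, 0 and 1 without wild-type replicates 1 and 2 and Mkl2-/- replicates 1, 2 and 3.

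Uptake and trafficking genes outside the set had 3 falls and 0 rises among 18 (5 lower and 2 higher at an unadjusted p under 0.05), with a median of -0.02. Over all genes 6.28% were called lower and 2.99% higher. Vldlr, a lipoprotein receptor gene, stood at 8.92 and 8.88 in the wild-type cultures, and at 8.10, 8.21 and 8.18 in the Mkl2-/- cultures, a fall of 0.74 ± 0.04 (1.67-fold, adjusted p = 0.0079). Scarb1, the gene of the receptor for high-density lipoprotein, fell by 0.375 ± 0.03 (adjusted p = 0.012). Lipa, which encodes the lysosomal acid lipase that frees cholesterol from its esters, fell by 0.55 ± 0.06 (adjusted p = 0.0195). After quantile normalization the list had 4 falls and 2 rises. It had 1 fall and 0 rises with no moderation, and the same with a 1.5-fold minimum. The 3 calls were 0 without wild-type replicate 2 or Mkl2-/- replicate 3 and 1 without Mkl2-/- replicate 1.

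The machinery that processes SREBPs and degrades sterol-regulated proteins had 0 calls among 8 genes by limma (2 lower and 0 higher at an unadjusted p under 0.05), with a median of 0.00. With 6.28% of all genes called lower and 2.99% higher, 0 or 1 call in a list this short is not read as a result about it. Mbtps1, the gene of the protease that first cuts the SREBPs, is listed at 11.47 on all 5 arrays. Among 13 further sterol and isoprenoid enzymes, limma also called 0 (4 lower and 1 higher at an unadjusted p under 0.05; median 0.00), but 1 lower and 1 higher after quantile normalization. The largest differences there, named after their values were seen, were in the oxysterol hydroxylase gene Cyp7b1 (-0.77, adjusted p = 0.060) and in Lbr (-0.34, adjusted p = 0.150), a chromosome 1 gene whose product shares the reductase step of Tm7sf2. Of 8 genes of the LXR arm, Lpcat3, which encodes a phospholipid acyltransferase, fell by 0.235 ± 0.02 (adjusted p = 0.014), and none rose (1 lower and 0 higher at an unadjusted p under 0.05; median 0.01). Lpcat3 did not pass without wild-type replicate 1 (adjusted p = 0.067), wild-type replicate 2 (0.084), Mkl2-/- replicate 2 (0.057) or Mkl2-/- replicate 3 (0.066).

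**Figure D4:**
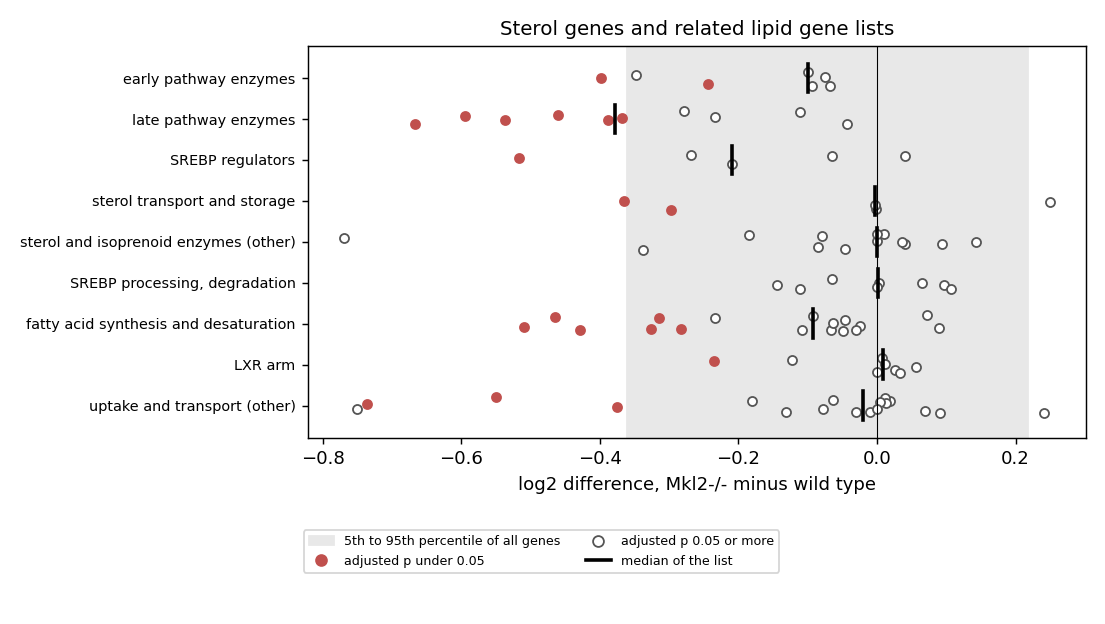
Log2 difference, Mkl2-/- minus wild type (x axis), of each gene in the 4 role groups of the sterol genes and in 5 related lists (rows), filled where the adjusted p is under 0.05, with the list median as a black bar and the 5th to 95th percentile of all genes (-0.36 to 0.22) shaded. Late enzymes have the lowest median of the 9 rows (-0.38), and no gene drawn is called higher with the values as deposited.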

How the data were processed

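Total RNA of 5 cultures was amplified and hybridised, biotin-labelled, to Affymetrix whole-transcript arrays, per the labels' protocols. Per the submitters' processing notes, the authors ran RMA in Affymetrix Expression Console 1.1, and what they deposited is on the log2 scale. This method subtracts background, equalizes the arrays by quantiles and combines probes, which shrinks differences of dim features. No source used here says whether a later step made many values equal across arrays. Array medians lay between 7.94 and 7.98, with 0 unused sample columns. Precision is limited by how few arrays there are.

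Of 35556 features, 21789 had 1 symbol in the platform annotation. Groups were fitted with lmFit and eBayes of limma 3.58.1 (R 4.3.3; 3 residual and 0.885 prior degrees of freedom), with Benjamini-Hochberg adjustment over 19938 genes and a threshold of 0.05. RefSeq tables of GRCm38.p6 gave chromosomes, neighbours (12 genes on each side) and promoters. The sterol genes, lists, motifs and tests were chosen with earlier results of these data known. All sterol genes are named; in other lists the called genes, at most 4 with the smallest p, and others named after their values were seen. Alternatives were 2 normalizations, 2 filters on dim genes, other variance priors, array weights, other feature choices, the replicate number as a block, a 1.5-fold minimum, a fibroblast covariate, removal of chromosome 1 and each array left out.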

Additional observations from a re-analysis of the deposited data

How the results depend on the processing

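The count of 11 falls stayed between 9 and 16 under both normalizations, both dim-gene filters, trend and robust priors, array weights, both other feature choices and removal of chromosome 1. It was 2 with no moderation, 2 with a 1.5-fold minimum and 0 with the fibroblast covariate, which nearly follows the genotype and leaves 2 residual degrees of freedom. Leaving out single arrays gave 0 to 4; a lone wild-type array is then assumed to vary like the others. Rises were 0 except for 1, Abcg1, after quantile normalization, where 15 sterol genes were lower. The median of -0.24 stayed between -0.23 and -0.27 except with the fibroblast covariate (-0.31). With the replicate number as a block, 0 sterol genes and no other gene passed, with 1 residual degree of freedom. The sample numbers in the titles do not say whether same-numbered cultures share an origin. Deviations of same-numbered cultures correlated at -0.20 (number 1) and 0.19 (number 2). With 2 wild-type arrays, their deviations are exact opposites, so these correlations cannot show whether the numbers pair the cultures. Sign changes were limited to genes that did not pass: Npc2 (0.04 after quantile normalization; -0.0067 to 0.0033 over the arrays left out), Abca1 (0.037 after quantile normalization, 0.0055 with array weights, 0.03 with the replicate block; -0.035 to 0.03 over the arrays left out), Mvk (0.026 with the fibroblast covariate) and Scap (-0.23 with that covariate, -0.005 to 0.065 over the arrays left out). The alternatives for the other lipid lists were added after seeing the data. Differences of a few hundredths are limited by the rounding of the deposited values to 2 decimals.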
